A study of Rattus norvegicus with 18 samples.

Results

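The late callus of old rats was compared here with that of young rats, gene by gene. The arrays were taken 4 and 6 weeks after femoral fracture, and they were 2 from Older rats (52 weeks old at fracture) and 2 from young rats (6 weeks old at fracture), out of 18 arrays in all, chosen by age and time label and paired by time. The 2 arrays from adult rats, fractured at 26 weeks of age, and taken at the same times served as an intermediate check. All rats were female Sprague-Dawley with no genetic change, and the fracture was a closed mid-shaft break of the femur over an intramedullary rod. The intact femora (no fracture) came from sham controls of each age, 1 array per age. The study asked what accompanies the slower healing of older rats. Every array held RNA pooled from 2 rats, so no value below belongs to a single animal, and the 4-week and 6-week arrays of an age stand in as its replicates (n = 2).

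Each sample was a mid-shaft segment of bone with its callus, cortex and marrow together. A fracture callus forms first as cartilage and fibrous tissue, is replaced by bone, and is then remodelled while marrow fills the canal again. Marrow holds the precursors of neutrophils, red cells, platelets and lymphocytes, which divide and carry transcripts found in few other cells. Cartilage genes are active in callus that bone has not yet replaced, but here they also had signal without fracture. The 9 measured cartilage genes summed to 2740 on the young, 822 on the adult and 404 on the Older intact array. On the young 6-week array they summed to 2792. The tissue matched its label on all 6 late arrays, where the osteoblast protein osteocalcin (Bglap) had a signal of 12689 to 19761, the bone collagen Col1a1 14648 to 31075 and the osteoclast protease Ctsk 11925 to 17324, all within the top 5% of probe sets. Skeletal muscle actin (Acta1) read 15852 to 30660 on the same arrays, so muscle was present as well. In such bulk tissue fewer cells of a type and less RNA per cell cannot be told apart.

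The young 6-week array stood apart from the other late arrays before any gene was considered. The actin controls, which read a transcript at its 3' and 5' ends and so reflect how intact the RNA is, had a 3'/5' ratio of 2.72 there where the other 5 late arrays read 1.71 to 2.27, and its GAPDH ratio was 3.78 where the others read 1.28 to 2.15. Its correlation with the other late arrays was 0.944 to 0.969, where those arrays had 0.961 to 0.975 with each other. The highest of its values was with the young 4-week array and the lowest with the Older 4-week array. For this reason the 4-week values are given beside the 6-week values for each gene, and they do not involve that array. A raised actin ratio was not confined to it. The intact arrays of young and Older rats, used further below, had actin ratios of 2.61 and 2.59, with GAPDH ratios of 1.61 and 1.69.

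Of 8740 probe sets fitted in limma, 108 were called for Older against young rats at 4 and 6 weeks at an adjusted p below 0.05. They were 38 higher (0.435%) and 70 lower (0.801%) in Older rats, while 1826 had an unadjusted p below 0.05 (750 higher and 1076 lower). The called probe sets covered 61 of 4736 genes, 26 of them higher (0.549%) and 35 lower (0.739%). Of the 108, 29 had a signal under 100 on all 6 late arrays and 12 were below the floor of 20 on both Older arrays, so dim probe sets made up part of the calls. Counted by size alone, 52 genes (1.10%) were at least 2-fold higher in Older rats at both times and 100 genes (2.11%) at least 2-fold lower. The median gene stood at -0.01 at 4 weeks and 0 at 6 weeks on the log2 scale.

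The split of the calls moved with the scaling. The median of all probe sets lay 0.12 lower on the log2 scale in Older rats (a difference of -0.16 at 4 weeks and -0.08 at 6 weeks), and with each array centred on its median the calls became 130 higher and 80 lower. Quantile normalization gave 37 higher and 41 lower. The calls also rested on few arrays: with the Older 6-week array left out 12 probe sets were called, and with the young 6-week array left out 92. The late difference of 73 named genes, which include the study's plotted or listed genes, was followed through such fits. Casr and the genes said below to be named for their call were not among them. Of the 73, 24 were called. Only Slc2a1 and Cacnb2 were called again in each of the 6 fits that left out a late array, and with the actin ratio as a covariate Cacnb2 alone of the 24 was.

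**Figure D1:**
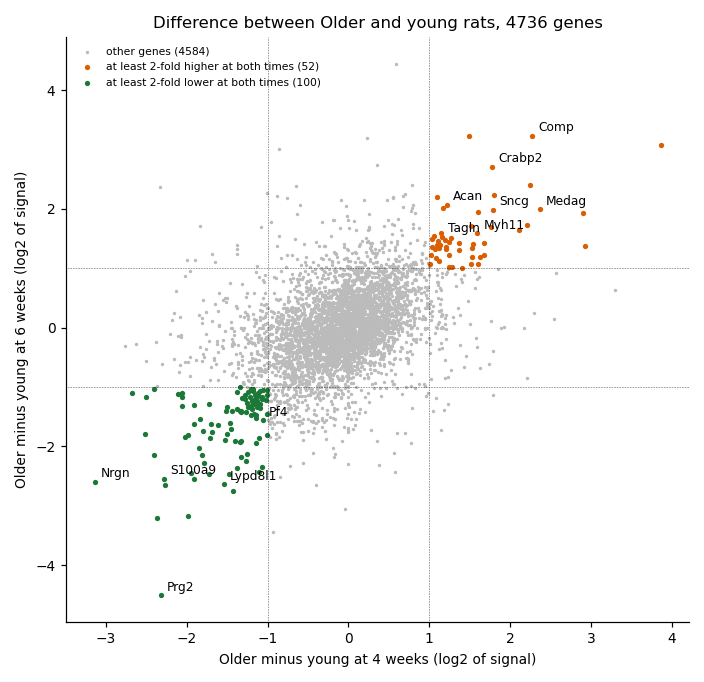
Difference in log2 signal between Older and young rats at 4 weeks (horizontal axis) and at 6 weeks (vertical axis) for 4736 genes, each a point. Dotted lines mark a 2-fold difference. The 52 genes past 2-fold at both times in the upper right include Comp, Medag and Crabp2, and the 100 in the lower left include Prg2, Nrgn and S100a9.

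The genes of marrow granulocytes stood lowest in the Older callus. The 9 measured neutrophil genes had a median difference of -1.81 at 4 weeks and -1.88 at 6 weeks on the log2 scale, where all genes had -0.01 and 0. For 7 of the 9, both Older arrays lay under both young arrays, against 28.5% of all genes. At both times 5 were at least 2-fold lower, against 2.11% of all genes. None of the 9 was called by limma. Cebpe and Anxa1, the other 2, had differences of opposite sign at 4 and 6 weeks. The summed signal of the list was 25930 and 48871 on the young arrays at 4 and 6 weeks, 9863 and 20435.5 on the adult arrays, and 9374 and 11764.5 on the Older arrays.

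S100a9, which with S100a8 forms the calcium-binding protein calprotectin of neutrophils, read 6411 and 13484 in young rats at 4 and 6 weeks, 1985 and 4756 in adult rats, and 1316 and 2310.3 in Older rats. It was 4.87-fold lower in Older rats at 4 weeks and 5.84-fold lower at 6 weeks, at an adjusted p of 0.0511 over both times. S100a8 read 5639.9 and 11871 in young rats against 1462 and 2174 in Older rats (adjusted p = 0.104). The 2 genes thus had the same order of ages, and both young arrays were above both Older arrays. Defa5, a defensin, an antimicrobial peptide of neutrophil granules, had signals of 2981 and 4872 in young rats and 620.5 and 778 in Older rats (adjusted p = 0.109). RatNP-3b, another neutrophil defensin, read 8133 and 14569.7 against 2836 and 3946, and the defensins are close relatives whose probes may share transcripts.

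Serglycin (Srgn), the proteoglycan that packs the granules of blood cells, was called. It read 1062 and 1516 in young rats, 358 and 515 in adult rats, and 347 and 488 in Older rats, so that it fell by 1.62 ± 0.17 (SE) on the log2 scale, 3.06-fold and 3.11-fold at the 2 times, with an adjusted p of 0.0393 (0.0759 to 0.157 with a late array left out). Fgr, a Src-family kinase of myeloid cells, was lower by nearly the same amount at each time, 3.6-fold at 4 weeks and 4.08-fold at 6 weeks (adjusted p = 0.015), from 93.9 and 152 in young rats to 26.1 and 37.2 in Older rats. With a floor of 100 in place of 20 it was no longer called. Padi4, the enzyme of granulocytes that converts arginine in histones to citrulline, read 537 and 1136 in young rats and 212 and 298 in Older rats (adjusted p = 0.0725). Pla2g2a, a secreted phospholipase with antibacterial activity, read 364 and 450 against 89.8 and 125 (adjusted p = 0.0573).

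Prg2, the major basic protein of eosinophil granules, had the largest mean ratio of the genes named. It read 406 and 783 in young rats, 94.9 and 101 in adult rats, and 81.2 and 34.5 in Older rats, which is 5-fold lower at 4 weeks and 22.7-fold lower at 6 weeks (adjusted p = 0.0649). The 14 genes of mast cells and eosinophils had medians of -0.85 and -0.57 on the log2 scale, and 11 of them had both Older arrays under both young arrays (28.5% of all genes). The 2 called members, where limma called 0.739% of all genes lower, were the mast cell proteases Mcpt3 and Mcpt9. They are named because limma called them, after their values were seen. Mcpt3 read 41.7 and 41.3 in young rats and 4.4 and 14.6 in Older rats, under the floor, and its log2 difference of -1.05 is set by the floor (adjusted p = 0.015). Mcpt9 likewise read 40.7 and 33.4 against 1.2 and 11.6 (adjusted p = 0.0311).

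Genes of platelets and red cell precursors were lower as well. Platelet factor 4 (Pf4), a chemokine of megakaryocytes and platelets, read 3346 and 4829.6 in young rats, 1579.9 and 2263 in adult rats, and 1608 and 1642 in Older rats, so the adult and Older arrays were alike at 4 weeks. It fell by 1.31 ± 0.16 (SE) on the log2 scale with an adjusted p of 0.0439. Itga2b, the alpha chain of the platelet fibrinogen receptor, read 483 and 731 in young rats and 244 and 246 in Older rats, a log2 difference of -1.28 (adjusted p = 0.0432), and is named because it was called. Pf4 was not called in any of the 6 fits that left out a late array, where its adjusted p was 0.0504 to 0.15. The 7 platelet genes had medians of -0.98 and -0.64, and 5 had both Older arrays under both young arrays (28.5% of all genes).

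All 14 red cell genes had both Older arrays under both young arrays, against 28.5% of genes, with medians of -0.71 at 4 weeks and -0.94 at 6 weeks. None was called by limma. Rhag, the Rh-associated glycoprotein of the red cell membrane, read 467 and 485 in young rats, 224 and 286 in adult rats, and 206 and 232 in Older rats (adjusted p = 0.157). Epor, the erythropoietin receptor, read 322 and 183 in young rats and 141 and 71.2 in Older rats (adjusted p = 0.279). The differences of beta globin (Hbb) were small at 4 weeks, with 26434 against 20873, and larger at 6 weeks, with 36676 against 17568, and globin genes share sequence, so their probe sets may read each other's transcripts. The smallest 4-week difference in the list, -0.20, was that of Epb41, a protein of the red cell skeleton.

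Genes of both lineages are known targets of GATA factors, which bind the letters GATAAG. The promoters of Itga2b and Rhag, a platelet and a red cell gene described above, are therefore shown as examples, with the motif in capitals (on the other strand it reads CTTATC). The sequences are from RefSeq, build GRCr8, and run from 250 bases before the gene's start to 50 bases after it. The first motif base lies 54 bases before the start in Itga2b (chr10:87925784-87926083, minus strand) and 32 bases before it in Rhag (chr9:27594341-27594640, minus strand).
Itga2b: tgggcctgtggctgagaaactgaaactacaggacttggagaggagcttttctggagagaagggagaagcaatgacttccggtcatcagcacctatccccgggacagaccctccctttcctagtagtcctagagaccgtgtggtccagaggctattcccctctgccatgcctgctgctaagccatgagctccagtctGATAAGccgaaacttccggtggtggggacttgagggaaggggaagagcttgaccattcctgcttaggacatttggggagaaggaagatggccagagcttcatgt
Rhag: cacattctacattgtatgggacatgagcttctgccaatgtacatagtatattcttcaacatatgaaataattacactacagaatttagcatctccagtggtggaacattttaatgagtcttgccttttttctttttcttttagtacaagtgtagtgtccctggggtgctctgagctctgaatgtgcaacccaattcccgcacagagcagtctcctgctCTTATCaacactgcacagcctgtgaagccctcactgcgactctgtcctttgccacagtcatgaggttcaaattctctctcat
On either strand the motif occurs in 3 of the 13 red cell genes that have a promoter in the table (Rhd, Epor and Rhag, 23.1%) and in Itga2b alone of 4 platelet genes (25%), while 1897 of all 27457 promoters hold it (6.91%). The CArG box, the motif of serum response factor in smooth muscle promoters, was found in 0 of 8 promoters of the smooth muscle list and in 451 of all 27457 (1.64%), which says only that its letters are not in those 8 windows. A match of letters is a description of these windows and does not show a bound site.

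Against the intact femur of the same age, the neutrophil, red cell and platelet lists stood closer to 0 in young than in Older rats at 4 and 6 weeks. The neutrophil list stood at a median of -3.30 in young rats at 2 weeks, -1.36 at 4 weeks and -0.52 at 6 weeks, while in Older rats it stood at -5.22, -2.92 and -2.25 and in adult rats at -4.54, -2.84 and -1.77. Between the intact arrays themselves the ages differed little, with a median difference of -0.07 between Older and young for neutrophil genes and 0.29 for red cell genes. The red cell list was at -0.11 and -0.28 at 4 and 6 weeks in young rats, -1.17 and -1.61 in Older rats, and -2.26 and -2.14 in adult rats, where the intact adult array was the highest of the 3 ages in summed signal. The other marrow lists did not follow this: mast cell and eosinophil genes stood at 1.06 and 0.86 in young rats and -0.05 and -0.06 in Older rats, and B cell genes at 0.05 and 0.43 against 0.16 and 0.54. No gene of the neutrophil or red cell list was called for a change of the age difference against the intact arrays, of which there is 1 per age.

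**Figure D2:**
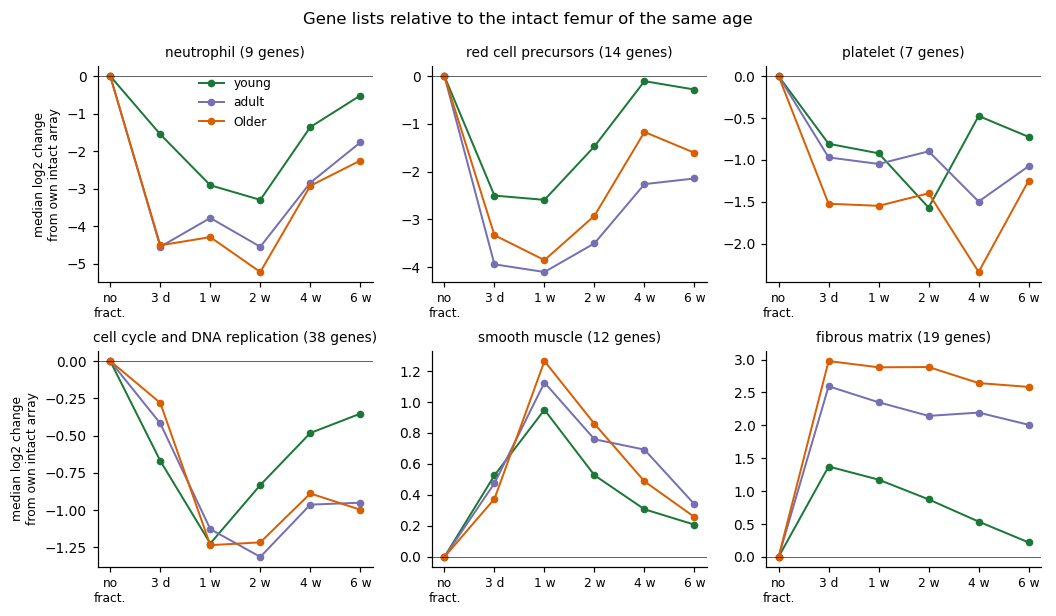
Median log2 change of 6 gene lists from the intact femur of the same age (vertical axis) over no fracture, 3 days and 1, 2, 4 and 6 weeks (horizontal axis), with 1 line per age. At 4 and 6 weeks the young line lies above the Older line for neutrophil, red cell, platelet and cell cycle genes and below it for the fibrous matrix genes.

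Genes of B cells and of cell division had lower signals in Older than in young rats, with the adult arrays lowest for some of them. The 4 B cell genes had medians of -1.14 and -0.95, though they were already at -1.17 between the intact arrays. Cd24, a surface protein of B cell precursors and other immature cells, read 2816 and 3002 in young rats, 1361 and 1147 in adult rats, and 1208 and 1341 in Older rats (adjusted p = 0.235), and on the intact arrays 2041 against 728. The immunoglobulin light chain gene Iglc1 read 759 and 1006 in young rats, 203 and 259 in adult rats, and 278 and 309 in Older rats (adjusted p = 0.0695). The 21 genes of T and killer cells had medians of -0.28 at 4 weeks and 0 at 6 weeks. The medians had opposite signs at 4 and 6 weeks for the 12 macrophage genes (-0.39 and 0.35) and the 9 class II histocompatibility genes (-0.31 and 0.08). The class II list held 1 call, RT1-DOa, which read 1244 and 1195 in young rats and 693 and 751 in Older rats (adjusted p = 0.0463).

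Of 38 genes of the cell cycle and DNA replication, 27 had both Older arrays under both young arrays (28.5% of all genes) and 1 (Ccnd1) had both above (19.4% of all genes). Their medians were -0.72 at 4 weeks and -0.63 at 6 weeks, and -0.08 between the intact arrays. None was called by limma, and 4 were at least 2-fold lower at both times (2.11% of all genes). Pcna, the sliding clamp of DNA polymerase, read 3509 and 5098 in young rats, 1560.3 and 2972 in adult rats, and 1387 and 1932 in Older rats (adjusted p = 0.0745). Mcm6 of the replicative helicase read 1723 and 1905 against 755 and 812, with 442 and 816 in adult rats, and the polymerase subunit Pold1 read 412 and 456 against 183 and 167. The mitotic cyclin Ccnb1 read 549 and 675 in young rats against 253 and 314 in Older rats. Cyclin D1 (Ccnd1) ran the other way, from 504 and 464 in young rats to 739 and 949 in Older rats. The part of marrow cells in these differences was not tested.

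Several other genes were lower in Older rats by large factors. Neurogranin (Nrgn), a calmodulin-binding protein best known from neurons, read 344 and 453 in young rats, 87.8 and 115 in adult rats, and 39.1 and 74.8 in Older rats. It was 8.81-fold lower in Older rats at 4 weeks and 6.05-fold lower at 6 weeks (adjusted p = 0.0501), and its second probe set had the same sign. Lypd8l1, which the study lists as RoBo-1, a gene of rat bone and growth plate cartilage, read 1248 and 4307 in young rats, 427 and 1282 in adult rats, and 429 and 694 in Older rats (adjusted p = 0.0501). On the intact arrays both genes were bright at every age, at 1703, 2589 and 1873 for Nrgn and 12909.7, 11437 and 10214 for Lypd8l1 in young, adult and Older rats.

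The called genes with the lowest ratios were dim in Older rats. Slc37a1, a sugar phosphate transporter, read 127 and 184 in young rats and 24.7 and 18.5 in Older rats, a difference of -2.78 ± 0.27 (SE) with an adjusted p of 0.0335. Tesc, a calcium-binding protein, read 115 and 204 in young rats and 28.9 and 22.6 in Older rats (adjusted p = 0.0393), and both genes were near or under 30 in adult rats. The transporters Slc6a18 (104 and 119 against 26.3 and 33.8) and Slc6a13 (80 and 96.5 against 31.8 and 36.2), the motor neuron homeobox gene Isl2 (123 and 159 against 35.4 and 47.8), the calcium channel subunit Cacnb2 (76.1 and 72.3 against 20.2 and 23.6) and the cytochrome Cyp4f4 (47.8 and 86.9 against 16.1 and 13.1) were also called, with adjusted p between 0.015 and 0.0476. Apart from Tesc, none of these reached a signal of 200 on a late array of any age, and with a floor of 100 in place of 20 none was called.

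Tap1, the peptide transporter that loads class I histocompatibility molecules, was a brighter call. It read 726 and 804 in young rats, 649 and 589 in adult rats, and 360 and 367 in Older rats, a 2.02-fold and a 2.19-fold difference (adjusted p = 0.0311), and its second probe set had the same sign. In the list of 18 interferon and complement genes it was the only call, and the list's medians were -0.23 and -0.39. Complement C3 read 304 and 326 in young rats against 70.4 and 149.9 in Older rats (adjusted p = 0.167), while the complement genes C1r and C1s had higher signals in Older rats at both times (log2 differences of 0.77 and 1.26 for C1r and 1.08 and 0.62 for C1s). The chemokine receptor Cxcr4, the only call among 42 growth factor and cytokine genes and named for that reason, read 1044 and 1030.4 in young rats and 629.5 and 708 in Older rats (adjusted p = 0.0311).

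Ribosomal protein genes as a group had medians of -0.13 and -0.29 over 41 members, of which 2 were called lower (0.739% of all genes). These were Rpl17 (317 and 488 in young rats, 111 and 184 in Older rats, adjusted p = 0.0315) and Rpl30 (217 and 296 against 118 and 143, adjusted p = 0.0335), both dim for ribosomal genes, which have many near-identical copies. Rpl19l4 read 2738 and 4189 against 1088 and 1117 (adjusted p = 0.0966). Aqp3, a water and glycerol channel, read 272 and 296 in young rats against 114 and 123 in Older rats (adjusted p = 0.109).

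Among the 33 lists of tissues and processes, smooth muscle genes had the highest medians in the Older callus, 0.76 at 4 weeks and 0.96 at 6 weeks over 12 members, and 0.43 between the intact arrays. For 9 of the 12 both Older arrays lay over both young arrays, against 19.4% of all genes. Of the 12, 3 were called higher, against 0.549% of all genes. Myh11, the smooth muscle myosin heavy chain, read 229 and 195 in young rats, 557 and 396 in adult rats, and 692 and 588 in Older rats. It rose by 1.59 ± 0.10 (SE), 3.02-fold at each time, with an adjusted p of 0.0162, but its 2 other, dimmer probe sets had the opposite sign. Transgelin (Tagln), an actin-binding protein of smooth muscle and myofibroblasts, read 720.2 and 541 in young rats, 1373 and 1234 in adult rats, and 1608 and 1564 in Older rats (adjusted p = 0.0307), with the same sign in its second probe set. Smooth muscle actin (Acta2), named because it was called, read 2504 and 2192 against 4699.7 and 4407 (adjusted p = 0.0311). For Tagln and Acta2 both adult arrays were also above both young arrays.

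At 1 week Tagln stood at 1521 in young rats and 2809 in Older rats, and at 2 weeks at 1296 and 2171, so the order of ages was the same earlier. Myh11 differed less then, with 411 against 504 at 1 week and 439 against 565 at 2 weeks. In 2 smooth muscle genes both Older arrays lay under both young arrays, against 28.5% of all genes. They were the integrin Itga8 (62.2 and 103 in young rats, 44.3 and 51.2 in Older rats) and Tpm1, a tropomyosin also abundant in skeletal muscle. The 41 genes of skeletal muscle contraction had medians of 0.22 at 4 weeks and -0.17 at 6 weeks, none was called, and their summed signal was 237242 and 288606 on the young arrays and 260631 and 218957 on the Older arrays.

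**Figure D3:**
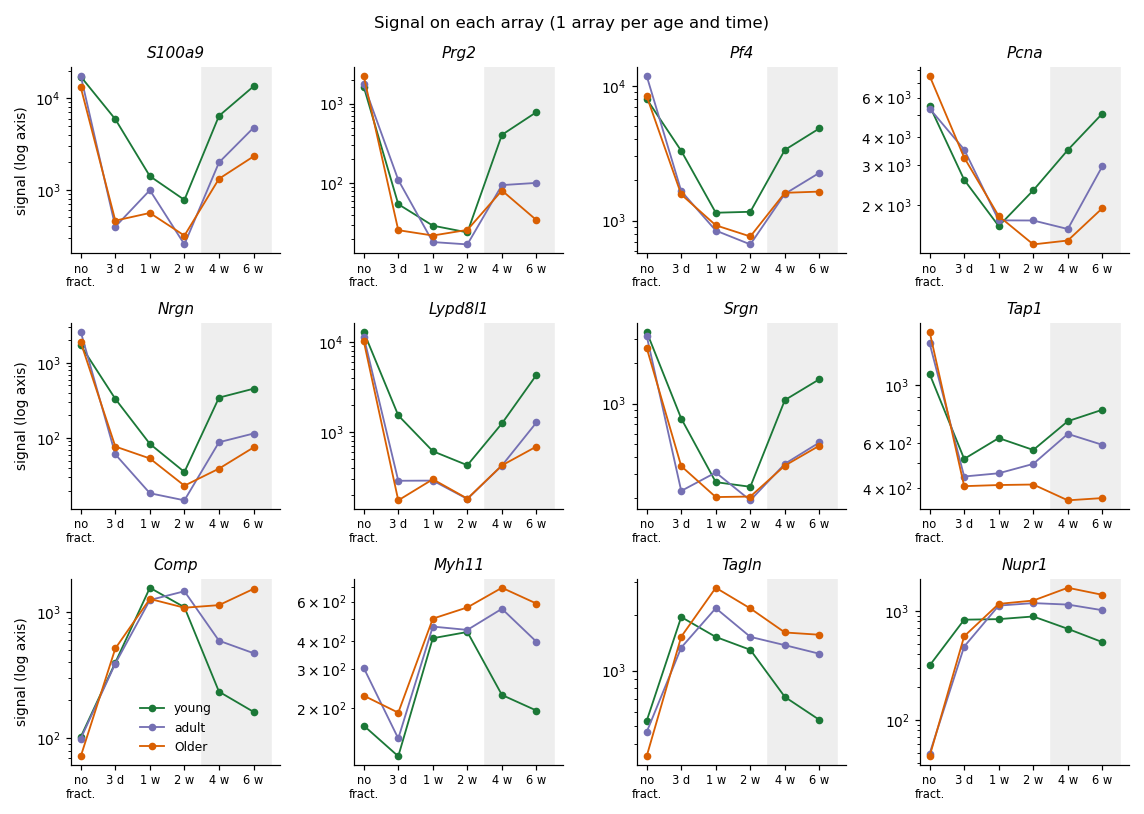
Signal of 12 genes on each of the 18 arrays (vertical log axes) over no fracture, 3 days and 1, 2, 4 and 6 weeks, with 1 line per age and the late times shaded. In the shaded part the young points lie above the Older points for S100a9, Prg2, Pf4, Pcna, Nrgn, Lypd8l1, Srgn and Tap1 and below them for Comp, Myh11, Tagln and Nupr1.

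Cartilage genes differed in part. Comp, the cartilage oligomeric matrix protein of cartilage and tendon, had nearly the same signal in young and Older rats at 2 weeks, 1096 and 1086. By 4 and 6 weeks it was at 235 and 162 in young rats, 595 and 474 in adult rats, and 1139 and 1531 in Older rats. It was 4.85-fold higher in Older rats at 4 weeks and 9.43-fold higher at 6 weeks, by 2.76 ± 0.29 (SE) on the log2 scale, with an adjusted p of 0.0393. Without the young 6-week array the difference was 2.47 (adjusted p = 0.11). Aggrecan (Acan), the main cartilage proteoglycan, read 365 and 191 in young rats, 690.5 and 1056 in adult rats, and 854 and 800.1 in Older rats (adjusted p = 0.101).

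The fibrillar cartilage collagen Col2a1 differed by 1.5-fold at 4 weeks (2719 in young rats and 4084 in Older rats) and by 21.8-fold at 6 weeks (262 and 5698), so its difference rests on the young 6-week array (adjusted p = 0.219). Col10a1, the collagen of hypertrophic cartilage, was lower in Older rats at 4 weeks, 518 against 939, and higher at 6 weeks, 694 against 86.5. The 9 cartilage genes had medians of -0.36 at 4 weeks and 0.76 at 6 weeks, which have opposite signs. For 3 of the 9 (33.3%) both Older arrays lay over both young arrays, against 19.4% of all genes. On the intact arrays most of these genes were higher in young rats, with a median difference of -1.46.

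Of 19 fibrous matrix genes, 13 had both Older arrays over both young arrays (19.4% of all genes) and none had both under, with medians of 0.33 and 0.86. None was called. Fibromodulin (Fmod), a proteoglycan that binds collagen fibrils, read 680 and 694 in young rats, 1202 and 864 in adult rats, and 1478 and 1758 in Older rats (adjusted p = 0.0748). Relative to its own intact array the list stood at 0.54 and 0.22 in young rats and 2.64 and 2.58 in Older rats, while the intact arrays themselves differed by a median of -1.68 between Older and young. For 8 of the 19 genes limma called a rise of the age difference against the intact arrays, as for 94 of all 4736 genes. This was not particular to the list: 6 of 18 bone matrix, 3 of 9 cartilage and 3 of 12 smooth muscle genes had such a call. The 18 genes of bone matrix and osteoblasts had medians of -0.20 and -0.11 between Older and young rats at the late times. None was called for that late difference, although the median was -1.85 on the intact arrays. The bone collagen Col1a1 read 24475 and 31075 in young rats against 19629.8 and 14648 in Older rats (adjusted p = 0.16), and the osteoclast list had a median of -0.01 over both times.

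Among 20 proteases and inhibitors of the matrix, 10 had both Older arrays over both young arrays (19.4% of all genes). For 2 both lay under (28.5% of all genes). The list had medians of 0.39 and 0.76, and 3 members were at least 2-fold higher at both times (1.10% of all genes). The metalloproteinase inhibitor Timp2 read 2948 and 2292 in young rats, 4985 and 6400 in adult rats, and 6145 and 6686 in Older rats (adjusted p = 0.0522). Stromelysin (Mmp3) read 123 and 139.8 against 275 and 564 (adjusted p = 0.0906), and the tissue plasminogen activator Plat 357 and 317 against 950.1 and 637 (adjusted p = 0.0701). Mmp8, the collagenase of neutrophils, had the lowest difference of the list, with 233 and 307 in young rats against 45.4 and 156 in Older rats.

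The growth factor Tgfb3, of the transforming growth factor family, read 387 and 372 in young rats, 832 and 626 in adult rats, and 818 and 840.5 in Older rats (adjusted p = 0.0539). Follistatin (Fst), which binds activins, read 123 and 122 in young rats and 352 and 258 in Older rats (adjusted p = 0.0785). Pmepa1, an inhibitor of transforming growth factor signalling, was called, at 3742 and 2318 in young rats, 7286 and 5328 in adult rats, and 8105 and 6363 in Older rats (adjusted p = 0.0311). The whole list of 35 genes of this pathway had a median of -0.01 over both times.

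**Figure D4:**
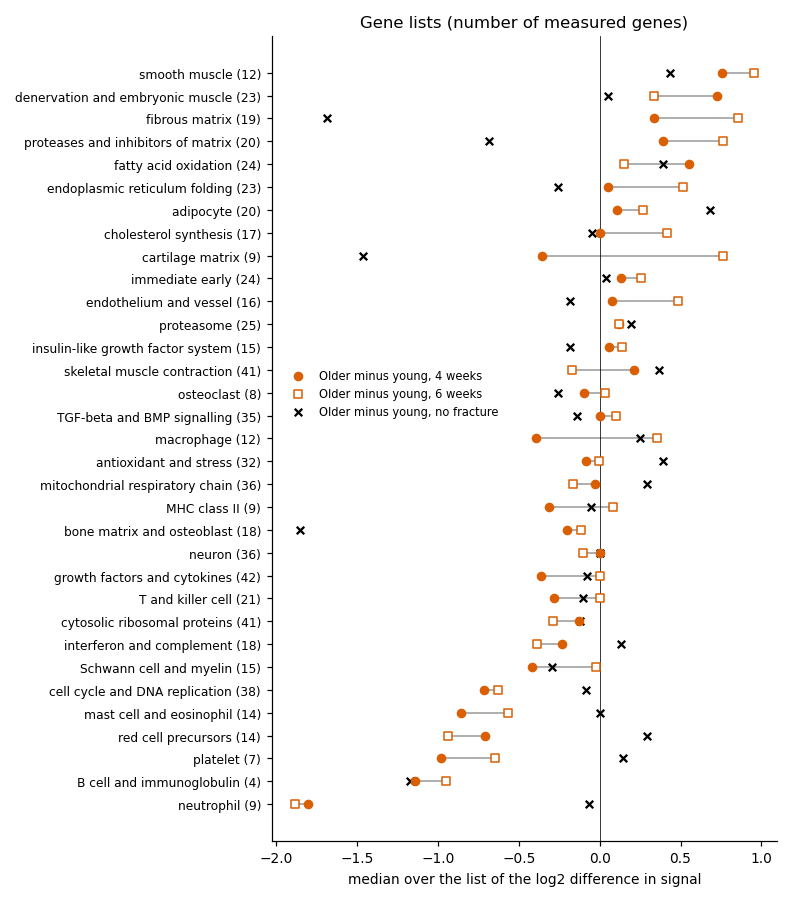
Median log2 difference between Older and young rats (horizontal axis) of 33 gene lists, with the number of measured genes in parentheses. Filled circles are 4 weeks, open squares 6 weeks and crosses the intact femora. Neutrophil, B cell, platelet, red cell, mast cell and cell cycle genes lie left of 0 at both times, and smooth muscle genes lie farthest to the right.

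Called genes outside the lists rose by similar factors in Older rats. Nupr1, a nuclear protein induced by stress, read 682 and 516 in young rats, 1138 and 1011 in adult rats, and 1623 and 1398 in Older rats, a difference of 1.34 ± 0.07 (SE) with an adjusted p of 0.015. The glucose transporter Slc2a1 read 328 and 270.1, then 672 and 573, then 749 and 752 in the 3 ages (adjusted p = 0.016), though its second probe set had the opposite sign. Aebp1, a protein of collagen-producing cells, read 732 and 538 in young rats and 1619 and 1629 in Older rats (adjusted p = 0.0393), with all 3 of its probe sets in the same direction. For each of the 3 genes both adult arrays lay between the young and Older arrays at both times.

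The homeobox gene Meox2 read 92.5 and 101 in young rats and 398 and 316 in Older rats (adjusted p = 0.0425), and the integrin Itgb4 132 and 107 against 447 and 349 (adjusted p = 0.0393). Enpep, an aminopeptidase that cleaves angiotensin, was under the floor in young rats, at 16.1 and 15.6, and read 123 and 115 in adult rats and 94.6 and 106 in Older rats. Against the floor of 20 it was 4.73-fold and 5.32-fold higher in Older rats (adjusted p = 0.015), and with a floor of 100 in place of 20 it was no longer called. Pmp22, a membrane protein of myelin that fibroblasts also make, read 864 and 939 in young rats and 1735 and 1983 in Older rats (adjusted p = 0.0311), with its second probe set of opposite sign. The median of its list of 15 Schwann cell genes was -0.30.

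Among the uncalled genes named that were at least 2-fold higher in Older rats at both times, Medag, a gene linked to fat cell formation, had the largest 4-week ratio. It read 205 and 245 in young rats, 629.5 and 323 in adult rats, and 1059 and 978 in Older rats (adjusted p = 0.0538). The retinoic acid binding protein Crabp2 read 89.9 and 36.4 against 308 and 238 (adjusted p = 0.0685), and the extracellular matrix protein Efemp1 64.2 and 90.7 against 296 and 302 (adjusted p = 0.123). Galectin-3 (Lgals3), a sugar-binding protein of macrophages and cartilage, read 1069 and 1510.4 in young rats, 3795 and 4127 in adult rats, and 3091 and 3818 in Older rats (adjusted p = 0.0975). Stearoyl-CoA desaturase (Scd), a lipid enzyme, read 1359 and 1887 against 3150.1 and 4707, but the intact arrays already stood at 271 in young rats and 2289 in Older rats. The protease inhibitor Cast read 97.8 and 25.5 against 275 and 240.1, and the cytokine Il33 120.2 and 118 against 349 and 312.

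**Figure D5:**
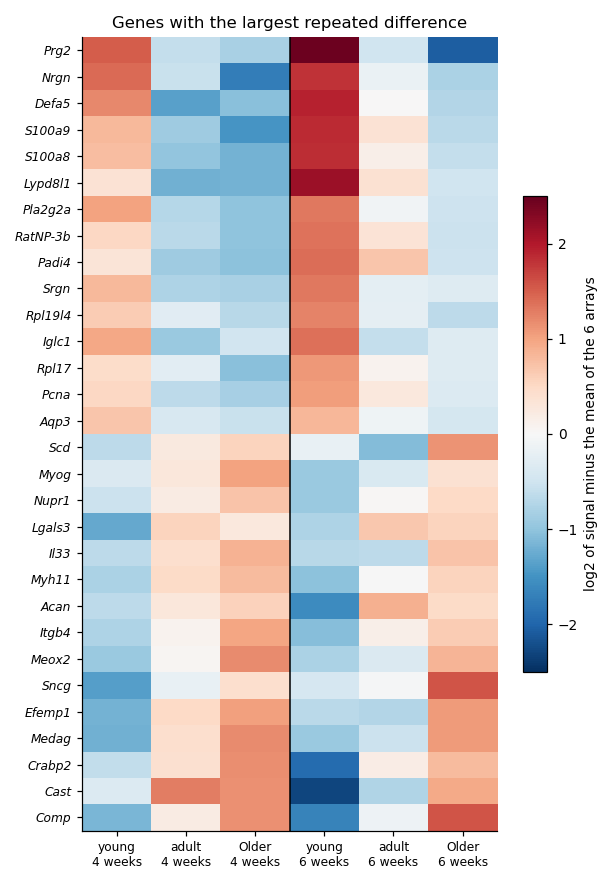
Log2 signal of 30 named genes (rows) on the 6 late arrays (columns), as the difference from each gene's mean over those arrays. The upper 15 rows are the genes lower in Older rats and the lower 15 those higher. The young array at 6 weeks has the strongest colour in most rows, and the adult arrays are mostly paler than the young and Older arrays of the same time.

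Genes of denervated and embryonic muscle had medians of 0.73 at 4 weeks and 0.33 at 6 weeks over 23 members, 14 of which had both Older arrays over both young arrays (19.4% of all genes). Called members, named for that reason, were the adhesion molecule Ncam1 (291 and 198 in young rats, 481 and 336 in Older rats, adjusted p = 0.0425) and the muscle transcription factor Myf6 (472 and 428 against 823 and 678, adjusted p = 0.0311). Myogenin (Myog), which drives muscle differentiation, read 221 and 150.1 against 571 and 371 (adjusted p = 0.142), and at 1 week 446 against 1958. In addition, 13 of 24 genes of fatty acid oxidation had both Older arrays over both young arrays (again against 19.4%), with medians of 0.55 and 0.15. Between the intact arrays the median of this list was already 0.39.

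The remaining lists held no limma call. Median log2 differences over both times were 0.16 for 16 endothelial genes, 0.25 for 20 adipocyte genes, 0.23 for 17 genes of cholesterol synthesis, 0.30 for 23 genes of protein folding in the endoplasmic reticulum, 0.17 for 24 immediate early genes and 0.12 for 25 proteasome genes. They were -0.07 for 36 genes of the respiratory chain, -0.03 for 32 antioxidant and stress genes, 0.05 for 15 genes of the insulin-like growth factor system and -0.09 for 36 neuronal genes. The array medians are 0.12 lower in Older rats, so centring on them raises each difference by that much. The sign of a negative median of that size or less thus depends on the scaling.

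The adult arrays gave an intermediate check, with the limit that this comparison uses the same young arrays. Against young rats, limma called 31 probe sets in adult rats at 4 and 6 weeks, 12 higher (0.137%) and 19 lower (0.217%), with 1507 at an unadjusted p below 0.05. Against adult rats, Older rats had 1 called probe set and 956 at an unadjusted p below 0.05. For 85 of the 152 genes past 2-fold at both times the adult signal lay between young and Older at both times, for 53 at 1 time and for 14 at neither. The median position of the adult arrays was 0.69 of the way from young to Older on the log2 scale, with quartiles of 0.41 and 0.87. List medians in adult rats against young rats were -1.56 and -0.86 at 4 and 6 weeks for neutrophil genes, -0.92 and -0.76 for red cell genes, and 0.64 and 0.67 for smooth muscle genes.

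The late age difference was next set against the one without fracture. Limma called 264 probe sets for a change, 161 higher (1.84%) and 103 lower (1.18%), and 47 of them were also called for the late difference itself. In 218 of the 264 the difference on the intact arrays was the greater, and in 61 all 4 late arrays were below the floor. The largest rises named by rule were Acan (5.64 on the log2 scale), Cgref1 (4.68), the cartilage collagen Col11a1 (4.64), Wfdc1 (4.46) and Aebp1 (4.29). Col11a1, for example, read 1735 in young and 63.1 in Older intact femora, but 1881 and 1566 in young and 1285 and 1872 in Older callus at 4 and 6 weeks. The largest falls were those of Cacnb2 (-3.43), the enzymes Treh (-2.18) and Gys2 (-2.02), the calcium-sensing receptor Casr (-1.86) and Isl2 (-1.74), all with signals under 200 on the young and Older arrays of both phases.

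Against the age difference at 1 and 2 weeks, limma called 0 probe sets (0%), with 937 at an unadjusted p below 0.05 and a smallest adjusted p of 0.0971. The lowest p-values with a rise were those of Nupr1, Enpep and Slc2a1, and with a fall those of Fgr, Cacnb2 and the acetylcholine receptor subunit Chrna4. Slc2a1 read 795 in young and 749.5 in Older rats at 1 week and 668 and 666 at 2 weeks, so the ages were close at those times. At 1 and 2 weeks 38 genes were at least 2-fold higher and 37 at least 2-fold lower in Older rats at both times, and limma called no probe set there (977 at an unadjusted p below 0.05).

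The study's own lists of nerve-related genes were chosen partly on these samples, so their direction is not independent evidence. Its 8 genes of a prolonged fall in older rats had a median of -0.61, with Nrgn and Lypd8l1 at least 2-fold lower and the synuclein Sncg at least 2-fold higher. The study describes this list by a weaker return to the level before fracture, which is another measure. Against the intact array of the same age, the list's medians at 4 and 6 weeks were -0.26 and 0.48 in young rats. They were -1.04 and -0.45 in adult rats and -1.25 and -1.71 in Older rats. Sncg read 247 and 479 in young rats, 561 and 629 in adult rats, and 856 and 1904 in Older rats (adjusted p = 0.0573), and its intact arrays stood at 58.7, 354 and 1052 in the same order. Neuropeptide Y (Npy) read 334 and 387 in young rats and 225 and 231 in Older rats (adjusted p = 0.122). Prlhr (43.2 and 96.1 against 44.8 and 29.4), the GABA receptor Gabbr2 (56.4 and 112 against 28.3 and 103), Nnat (256 and 324 against 259 and 514) and Acsl6 (51.1 and 102 against 99.7 and 46) overlapped between the ages.

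Its 9 genes with a greater rise in older rats had a median of 0.85, and 7 of them had both Older arrays over both young arrays (19.4% of all genes). Thrombospondin 4 (Thbs4), a matrix protein of tendon and muscle, read 1085 and 1274 in young rats, 2568 and 1308 in adult rats, and 3927 and 2518 in Older rats (adjusted p = 0.105). Spondin 1 (Spon1), an axon guidance protein, read 280.4 and 262 against 547 and 592 (adjusted p = 0.0887), and the activity-induced transcript ania-4 202 and 213 against 579 and 500.4 (adjusted p = 0.0573). The 6 genes with a greater rise in young rats had a median of 0.03, where the kinase Cdk18 read 81.3 and 26.3 in young rats and 173 and 121 in Older rats, and the phosphatase Ptprz1 read 462 and 239 against 254 and 238. The lists of a rise and a fall at all ages had medians of 0.34 and -0.30 over both late times. From these, the neuropeptide galanin (Gal) read 410.1 and 127 against 706 and 678 (adjusted p = 0.326), and the adhesion molecule Cntn2 187 and 296 against 199.7 and 214 (adjusted p = 0.601).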

How the data were processed

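The deposited values are signal intensity from Affymetrix rat genome arrays, which the authors computed with the Affymetrix Microarray Suite and scaled to a common target. The 2% trimmed means were 500.71 to 500.84, so a value is a share of an array's signal. Array signals have no depth, and the number of arrays limits precision. Of 8799 probe sets 59 controls were left out and 8740 tested. By the platform annotation 7006 name 1 gene, 308 several and 1426 none, covering 4736 genes, each read by its probe set of highest mean log2 signal. Any signal under 20 was set to 20 before the log2. The table had 0 unused columns.

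A limma 3.58.1 (R 4.3.3) fit used time plus age nested in phase (intact, 3 days, 1 and 2 weeks, 4 and 6 weeks), so that arrays were paired by time, with 4 residual and 0.865 prior degrees of freedom and Benjamini-Hochberg adjustment over all probe sets. The spread thus comes from the arrays of 1 and 2 weeks and of 4 and 6 weeks. P-values measure the spread between these arrays, 1 per age and time, each a pool of 2 rats. On simulated data for Older against young rats, with 50 of 8740 probe sets changed at each size, 10, 31, 43 and 47 were called at log2 changes of 1, 2, 3 and 4, with 11 false calls.

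Genes were named by rule: the 15 highest and 15 lowest among those past 2-fold at both times with a signal of at least 200 in the higher age, up to 4 such members of each list, up to 10 calls each way, the extremes of each change, and the study's plotted or listed nerve-related genes. Others are said to be named for their call. The genes, the 33 lists and the tests were chosen with earlier results of these data known. Lists are described by counts and medians, with no test. The 5 nerve-related lists are the study's own. Alternatives were a floor of 100, log2(signal + 50), centring on array medians, quantile normalization, a mean signal of at least 200, no trend, late arrays alone, no pairing by time, a covariate of the actin 3'/5' ratio, the methods' t-test, each late array left out, and other summaries of probe sets. S-SCAM, from the study's lists, was below the floor on all 6 late arrays.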

Additional observations from a re-analysis of the deposited data

Results flagged for a closer look

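For 264 probe sets limma found that the late age difference (Older minus young) departed from that between the intact femora of the same ages. Each intact group is 1 array. The genes named in the report with such a change are given here as the late log2 difference minus the intact one.

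The change was 5.64 for Acan, 4.68 for Cgref1, 4.64 for Col11a1, 4.46 for Wfdc1, 4.29 for Aebp1, 4.11 for Nupr1 and 3.49 for Tgfb3. These genes were all higher in the young than in the Older intact femur, by a log2 difference of -2.37 to -4.78. It was 3.27 for Comp, 3.13 for ania-4, 2.91 for Meox2, 2.46 for Timp2 and 2.33 for Enpep, which was below the floor in young and Older intact femora. Among the contractile and membrane genes it was 1.98 for Tagln, 1.73 for Pmp22 and 1.15 for Myh11, and it was 1.35 for Pmepa1 and 1.10 for Slc2a1.

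A fall of the difference was found for Cacnb2 (-3.43), Treh (-2.18), Gys2 (-2.02), Casr (-1.86), Isl2 (-1.74), Fgr (-1.74), Tap1 (-1.61) and Chrna4 (-0.82). Treh, Gys2 and Chrna4 were near or below the floor on the late arrays.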

How the results depend on the processing

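Of 108 probe sets called for Older against young rats, limma called 0 with the 4 late arrays alone (1031 at an unadjusted p below 0.05), where 1 residual degree of freedom is left, and 1 probe set was called with the 6 late arrays alone, 1 with the actin ratio as a covariate and 1 by the methods' t-test after Benjamini-Hochberg adjustment (160 at its own threshold). The count was 296 with log2(signal + 50), 415 with a mean signal of at least 200, 210 with median centring, and 12 to 282 with a late array left out. It was lowest without the Older 6-week array and highest without the young 4-week array. Without pairing by time (no block) 152 were called, and the change against the intact arrays gave 218. That change gave 127 with the actin ratio, 174 with log2(signal + 50) and 163 to 461 with an array left out, against 264. The change against 1 and 2 weeks gave 1 with the actin ratio, 12 with a floor of 100, 8 without the block, 3 with quantile normalization and 2 to 133 with an array left out, against 0. Adult against young rats gave 31, which became 1 with the 6 late arrays alone, 1 with the actin ratio, 79 with a floor of 100, 124 with log2(signal + 50), 174 with a mean signal of at least 200, 61 with median centring, 78 without the block, 7 with quantile normalization and 16 to 230 with an array left out. Genes past 2-fold at both times (52 higher, 100 lower) became 32 and 38 with a floor of 100, 27 and 34 with log2(signal + 50), 31 and 38 with a mean signal of at least 200, 145 and 338 at 4 weeks alone and 270 and 344 at 6 weeks alone. The cause of these shifts was not tested. The sign reversed for 4 genes with small differences. With the actin ratio Prlhr came to 0.12, Nnat to -0.19, Acsl6 to 1.12 and Cntn2 to 0.16. Acsl6 came to 0.031 with median centring and 0.10 with quantile normalization. With a late array left out, Acsl6 ranged from -0.97 to 0.79, Cntn2 from -0.41 to 0.032 (0.019 without the Older 6-week array) and Nnat from -0.18 to 0.86. The other named genes kept their sign under these alternatives. With the actin ratio as a covariate, however, only 1 of the 24 called genes among the 73 was still called. Signal near the floor limits the dim genes: with a floor of 100, 14 of these 24 genes were still called.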
